A study of Mus musculus and Rattus norvegicus with 33 samples.

Results

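Myc and 34 factors of ribosome assembly were followed through stimulated, sham-operated and contralateral legs of mice and rats. Members were taken by exact gene symbol from a fixed list of 35. All 35 were in the mouse table of 21322 symbols and 33 were in the rat table of 12411, with the 2 rat rows of Ubtf summed. Dkc1 and Rrp12 were left out in rats, where no row carries their symbols. Every member found passed the filter of a CPM (reads scaled to a common library total) of 1 or more in at least 2 libraries.

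The libraries came from the tibialis anterior, the muscle at the front of the shin, of wild-type animals. Training was given by implanted nerve stimulators controlled over Bluetooth. In mice the left leg was trained for 2 days (legs TAL344 and TAL345, n = 2), 10 days (TAL340, TAL341 and TAL342, n = 3) or over 17 days (TAL337, TAL343 and TAL349, n = 3), and 9 right legs (TAR) were contralateral controls. In rats the left leg was trained daily for 30 days (TAL292 and TAL294, n = 2), trained every 3 days for 30 days (TAL295, TAL298 and TAL299, n = 3) or sham-operated (TAL296, TAL297 and TAL300, n = 3), and 8 right legs were contralateral controls. Trained legs were taken 1 hour after exercise, and the labels give no time for the other legs. The labels give neither strain, sex nor age, and do not say whether sham legs carried a device. No mouse was sham-operated, so in mice surgery and side of the body cannot be told apart from training. Comparisons with contralateral or sham legs within a species share those control libraries and are not independent of each other.

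Myc is a transcription factor that pairs with Max, binds E-box sequences and raises transcription of genes for cell growth, ribosome assembly among them. Ribosomes are assembled in the nucleolus. RNA polymerase I makes the long ribosomal RNA precursor, and box C/D and box H/ACA particles modify its nucleotides. Large sets of assembly factors fold and cut the precursor into the small and the large subunit before export. In skeletal muscle, ribosome content is regarded as a limit on protein synthesis during growth, and Myc is known as a gene that responds to loading within hours.

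The E-box that Myc prefers, CACGTG, was searched in the 250 bases before each start site in the RefSeq promoter windows of the mouse build GRCm38.p6. The motif reads the same on both strands, so each match was counted once. Of the 29 members with a window, 2 held it (6.9%), against 1854 of 27025 genes (6.9%). These were Nop2, a methyltransferase that modifies large-subunit ribosomal RNA, with a match that starts at position -60 before the start site, and Rrn3, the factor that joins RNA polymerase I to its promoter, with matches at -215 and -48. Their windows (chr6:125131633-125131882 and chr16:13780449-13780698, both plus strand) are shown with the motif in capitals. The window of Gnl3 (chr14:31019132-31019381, minus strand), a nucleolar GTP-binding protein of large-subunit assembly that recurs in the results, held none and is shown beside them. Of 94 genes with a window in the wider list of assembly factors used below, 10 held the motif (10.6%). Myc, Fbl, Npm1, Bop1, Rrp12 and Rrs1 had no window, and bases after the start site were not searched. Letters that match are a description of the window and not a binding site.
Nop2: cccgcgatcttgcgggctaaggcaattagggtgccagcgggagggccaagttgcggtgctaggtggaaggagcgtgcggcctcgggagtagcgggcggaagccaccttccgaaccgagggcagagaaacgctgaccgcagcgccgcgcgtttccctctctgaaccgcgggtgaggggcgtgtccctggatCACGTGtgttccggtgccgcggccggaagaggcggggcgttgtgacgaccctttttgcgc
Rrn3: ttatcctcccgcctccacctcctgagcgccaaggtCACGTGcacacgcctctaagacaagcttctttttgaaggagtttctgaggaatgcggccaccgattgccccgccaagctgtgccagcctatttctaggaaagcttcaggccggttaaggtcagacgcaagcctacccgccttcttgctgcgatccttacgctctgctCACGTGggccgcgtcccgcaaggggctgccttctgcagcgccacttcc
Gnl3: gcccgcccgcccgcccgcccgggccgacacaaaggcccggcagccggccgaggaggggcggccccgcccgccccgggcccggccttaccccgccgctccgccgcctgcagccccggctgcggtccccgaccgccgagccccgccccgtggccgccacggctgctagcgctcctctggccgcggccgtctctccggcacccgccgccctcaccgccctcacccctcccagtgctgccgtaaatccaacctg
The expression tables use other coordinates than these windows. The deposited positions of Myc are chr15:61857240-61862224 (GRCm39) in mouse and chr7:93593705-93598633 (rn7) in rat, both on the plus strand.

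Estimated depth was 26.5 to 43.1 M reads in mouse and 4.9 to 28.0 M in rat libraries. In both species a library stands apart. Mouse leg TAL344 was the highest of all 17 mouse libraries for 24 of the 35 members, where 30.0% of all genes tested had their highest value. Its partner in the 2-day group, TAL345, had the smaller own-leg change for 28 of the 34 members other than Myc. An own-leg change is the left minus the right leg of the same animal on log2(CPM + 0.5). Rat contralateral leg TAR299 was the shallowest library at 4.9 M reads. It was above all other contralateral legs for 17 of the 33 members and below them for 7. The share of all genes outside the other legs was not counted for TAR299, so these counts are not read as particular to the members. Main results that rest on these legs are given with and without them.

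Myc had the largest change of all members in each of the 3 mouse and 4 rat comparisons of trained with untrained legs. In rat legs trained every 3 days it stood at 44.5, 23.1 and 22.1 CPM, and in legs trained daily at 31.1 and 16.1 CPM. Sham legs stood at 3.06, 2.03 and 2.46 CPM. In contralateral rat legs the lowest, median and highest values were 0.411, 2.66 and 5.36 CPM, and the lowest, in TAR299, rests on an estimated 2 reads. Every trained rat leg was above every sham and contralateral leg, and sham legs lay within the contralateral range.

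**Figure D1:**
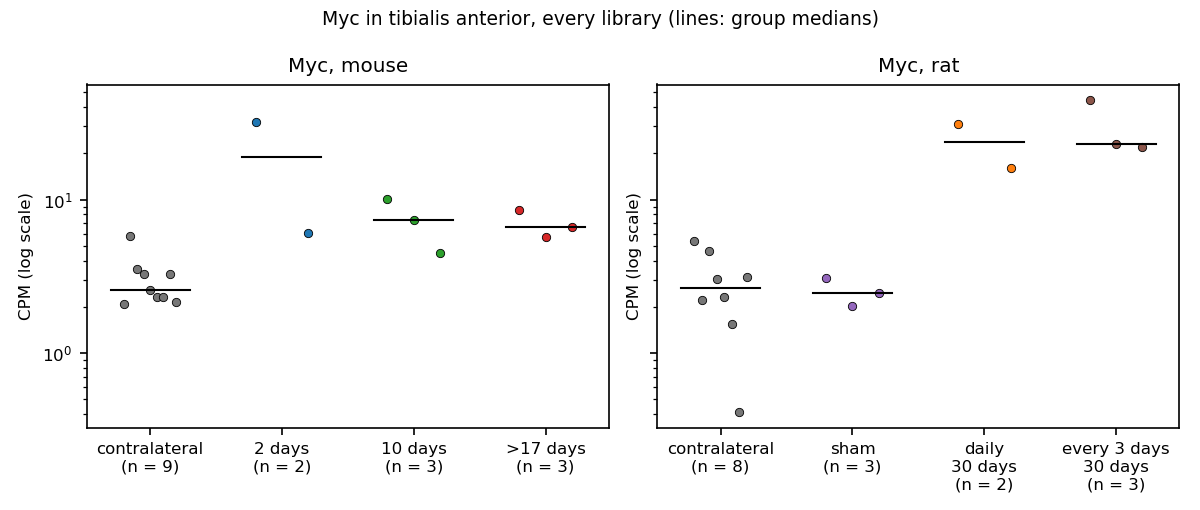
Myc in every library of mouse (left) and rat (right), as CPM on a log scale, with points for legs and lines for group medians. All 5 trained rat legs, at 16.1 to 44.5 CPM, lie above the sham and contralateral legs, and in mice TAL344 at 32.1 CPM lies far above the other trained legs.

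On the log2(CPM + 0.5) scale Myc rose by 3.27 ± 0.50 (SE) in the every-3-days legs against sham (limma adjusted p = 0.000473) and by 2.94 ± 0.56 in the daily legs (limma adjusted p = 0.00314). A member is called at an adjusted p under 0.05 over all genes tested in its species. Against contralateral legs the changes were 3.30 ± 0.42 (limma adjusted p = 4.37e-05) and 2.97 ± 0.49 (limma adjusted p = 0.000789). The every-3-days calls held in every alternative run, the largest limma adjusted p being 0.00486 against sham and 0.00106 against contralateral legs. Without rat leg TAL292 the daily change against sham was 2.48 with a limma adjusted p of 0.104, and against contralateral legs 2.51 with a limma adjusted p of 0.0833. Where leaving out a leg leaves 1 in its group, as here and for the 2-day mice, the lone leg is assumed to vary like the other groups. That remaining daily leg, TAL294 at 16.1 CPM, was still above every untrained leg. Daily minus every-3-days training gave -0.33 ± 0.56 for Myc (limma adjusted p = 0.99), an interval wide enough to hold sizeable differences in either direction. Sham minus contralateral legs gave 0.03 ± 0.42 (limma adjusted p = 0.999).

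In mice Myc stood at 32.1 CPM in TAL344 and 6.04 CPM in TAL345 after 2 days of training. The 10-day legs TAL340, TAL341 and TAL342 stood at 10.1, 7.39 and 4.5 CPM, and the over-17-day legs TAL337, TAL343 and TAL349 at 8.52, 5.68 and 6.59 CPM. Contralateral mouse legs had a lowest, median and highest value of 2.09, 2.57 and 5.79 CPM. The highest contralateral leg was TAR340, the others reaching 3.52 CPM, so that TAL342 and TAL343 overlap the control range through that leg alone. Each of the 8 trained mice had more Myc in the left than in its own right leg, by 0.40 to 3.53 on the log2(CPM + 0.5) scale.

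After 2 days mouse Myc rose by 2.11 ± 0.41 against contralateral legs (limma adjusted p = 0.00413). Without TAL344 the change was 0.95 with a limma adjusted p of 0.418, and without TAL345 it was 3.26. After 10 days it was 1.14 ± 0.35 (limma adjusted p = 0.0688) and after over 17 days 1.11 ± 0.35 (limma adjusted p = 0.0585), neither past the threshold. With the animal as a block the 10-day change was 0.71 with a limma adjusted p of 0.339, and the over-17-day change was 1.41 with a limma adjusted p of 0.0277, past the threshold. Without TAL337 the over-17-day change was 0.97 (limma adjusted p = 0.226). Over 17 days minus 2 days gave -0.99 ± 0.48 (limma adjusted p = 0.319) and 0.17 without TAL344, so no order of the 3 training times was resolved. Trained groups followed each other in the order 2 days, 10 days and over 17 days by mean (19.1 ± 18.4, 7.33 ± 2.80 and 6.93 ± 1.45 CPM, SD), and neighbours in that order overlap.

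Among contralateral rat legs Myc was the least abundant member per length of transcript, at 1.21 ± 0.683 CPM per kb (SD, n = 8), and the most variable, with a coefficient of variation of 56.7%. At the other end stood the nucleolar proteins Ncl, at 67.1 ± 4.87 CPM per kb, and Npm1, at 53.6 ± 7.4, with the box H/ACA protein Nop10 at 57.7 ± 13.9 between them. Utp20, a scaffold protein of the early small-subunit particle, stood at 1.75 ± 0.193 CPM per kb. In contralateral mouse legs the coefficient of variation across libraries ran from 4.38% for Wdr12, a large-subunit factor, to 38.6% for Myc. The deposited mouse lengths are gene spans with introns, and levels are not compared between mouse genes.

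After 2 days of training, 6 of the 35 members rose in the mouse legs and none fell (limma), and 15 had an unadjusted p under 0.05. Over all genes tested 9.72% were called, 7.32% as higher and 2.4% as lower. The share of all genes at an unadjusted p under 0.05 was not counted. Counts at that threshold, here and below, are therefore not read as particular to the members or to the further lists. Besides Myc the 6 that rose were Gnl3 and Nip7 of large-subunit assembly, Nhp2 of the box H/ACA particle, Nop58 of the box C/D particle and Rrp12, which takes part in export of both subunits. The median log2 change was 0.31 over members and 0.11 over all genes tested, and 32 of 35 members were above 0, against 64.1% of genes. Without TAL344 the median was 0.11 over members and 0.00 over genes, with 30 of 35 members above 0 against 50.5% of genes. Without TAL345 the median was 0.45 over members and 0.23 over genes. The changes of Myc, Nhp2, Nip7 and Rrp12 were smaller without TAL344, at 0.95, 0.26, 0.19 and 0.16. Those of Gnl3 and Nop58 were 0.68 and 0.47 without it, beside 0.58 and 0.50 with both legs. A fit that leaves 1 leg in the group resolves little, so a lost call alone does not show which leg a member rests on. In bulk tissue fewer cells of a type and less RNA per cell cannot be told apart, and this holds for every level given here.

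Markers of fibre state and of other cells differed between the same 2 legs. The 5 markers listed for regenerating fibres were Myh3, Myh8, Ncam1, Chrna1 and Chrng, all detected. Such genes are not particular to regeneration, and the state of the fibres was not tested. They summed to 359 CPM in TAL344, 26.2 CPM in TAL345 and 14.2 to 21.4 CPM in contralateral legs. The 13 macrophage markers summed to 334, 137 and 46.6 to 220 CPM, and the 6 satellite-cell and myoblast markers to 97.2, 31.5 and 24.4 to 48.0 CPM. The 8 muscle-fibre markers, mostly genes of fast fibres, check the tissue label and summed to 105000, 115000 and 93200 to 148000 CPM. No marker of these 4 lists was at 0 in all libraries. In the same order, endothelial markers summed to 203, 303 and 265 to 399 CPM, and Schwann-cell markers to 18.6, 35.4 and 24.5 to 48.4 CPM. TAL344 was below all contralateral legs for both lists. Fibroblast markers summed to 1290, 1120 and 442 to 1330 CPM. The 7 cycling-cell markers summed to 10.4, 9.54 and 3.6 to 8.42 CPM. Of these, 4 were tested, and Mki67 and Tpx2 were called after 2 days, 1 higher and 1 lower (limma). Of the 6 lymphocyte markers 1 passed the filter, the immunoglobulin heavy chain gene Ighm, and it fell by 1.28 on the log2 scale after 2 days (limma). Mitochondrial transcripts took 11.4% of the CPM in TAL344, the lowest share of the mouse libraries, and 19.0% in TAL345. The part of these differences in the members' changes was not tested.

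Gnl3, also known as nucleostemin, was the called assembly factor that stood higher in TAL345 than in TAL344. It stood at 25.1 CPM in TAL344 and 29.2 CPM in TAL345, and at 16.1, 17.7 and 20.9 CPM as the lowest, median and highest of contralateral legs. Both trained legs were above all 9 controls. Gnl3 rose by 0.58 ± 0.13 (limma adjusted p = 0.0117), and by 0.66 with the animal as a block (limma adjusted p = 0.0467). Leaving out TAL344 gave 0.68 (limma adjusted p = 0.0668) and leaving out TAL345 gave 0.47 (limma adjusted p = 0.0588). With libraries rescaled to the median ratio over genes it was also not called.

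Nhp2, a core protein of the particles that turn uridine into pseudouridine, stood at 36.4 CPM in TAL344 and 16.5 CPM in TAL345, with 9.87, 14.5 and 16.2 CPM as the lowest, median and highest of contralateral legs. It rose by 0.82 ± 0.22 (limma adjusted p = 0.0235), and by 0.26 without TAL344 (limma adjusted p = 0.845). TAL345 was barely above its controls. Nip7, a factor of pre-ribosomal RNA processing, stood at 14.5 and 8.51 CPM against 6.48, 7.35 and 8.34 CPM, and rose by 0.56 ± 0.16 (limma adjusted p = 0.0294). Without TAL344 its change was 0.19 (limma adjusted p = 0.85). Nop58 stood at 14.5 and 13.9 CPM against 8.35, 10.5 and 11.6 CPM, both legs above all controls. It rose by 0.50 ± 0.14 (limma adjusted p = 0.0348), with 0.47 without TAL344 (limma adjusted p = 0.416). Rrp12 stood at 78.5 and 46.1 CPM against 35.8, 39.7 and 50.1 CPM, TAL345 within the controls, and rose by 0.54 ± 0.17 (limma adjusted p = 0.0473), with 0.16 without TAL344 (limma adjusted p = 0.913). With the animal as a block none of these 4 was called, at limma adjusted p of 0.164 for Nhp2, 0.189 for Nip7, 0.0618 for Nop58 and 0.26 for Rrp12. Nop58 and Rrp12 were also not called with median-ratio rescaling. Nop58 was not called with mitochondrial genes left out, nor Rrp12 without the filter or in a fit of these 2 groups only.

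By role and with both legs, the 5 members of RNA polymerase I and its factors ran from -0.06 (Rrn3) to 0.38 (Polr1c, a subunit shared with RNA polymerase III) after 2 days, with none called. The 3 box C/D proteins ran from 0.14 (Nop56) to 0.61 ± 0.19 for Fbl, the methyltransferase of that particle, which was not called (limma adjusted p = 0.0539). Fbl stood at 11.7 CPM in TAL344 and 6.23 CPM in TAL345, against 4.36 to 6.37 CPM in contralateral legs, so the second leg lay within the control range. The 4 box H/ACA proteins ran from -0.09 (Dkc1, the pseudouridine synthase) to 0.82, and the 6 small-subunit factors from -0.14 (Utp20) to 0.54. The 12 large-subunit factors ran from 0.11 (Noc3l) to 0.58, with Bop1 at 0.54 ± 0.19 and Pes1 at 0.49 ± 0.15, partners with Wdr12 in a complex of large-subunit assembly (limma adjusted p = 0.0793 and 0.0505). Without TAL344 Bop1 was at 0.02, Pes1 at 0.13 and Fbl at 0.18. The 4 nucleolar proteins with several roles, Ncl, Npm1, Nolc1 and the helicase Ddx21, ran from 0.15 to 0.33, none called. Without TAL344 the ranges were -0.03 to 0.09 for RNA polymerase I and its factors, 0.06 to 0.47 for box C/D and -0.15 to 0.39 for box H/ACA proteins. They were -0.15 to 0.29 for small-subunit factors, -0.01 to 0.68 for large-subunit factors and 0.12 to 0.25 for the nucleolar proteins.

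**Figure D2:**
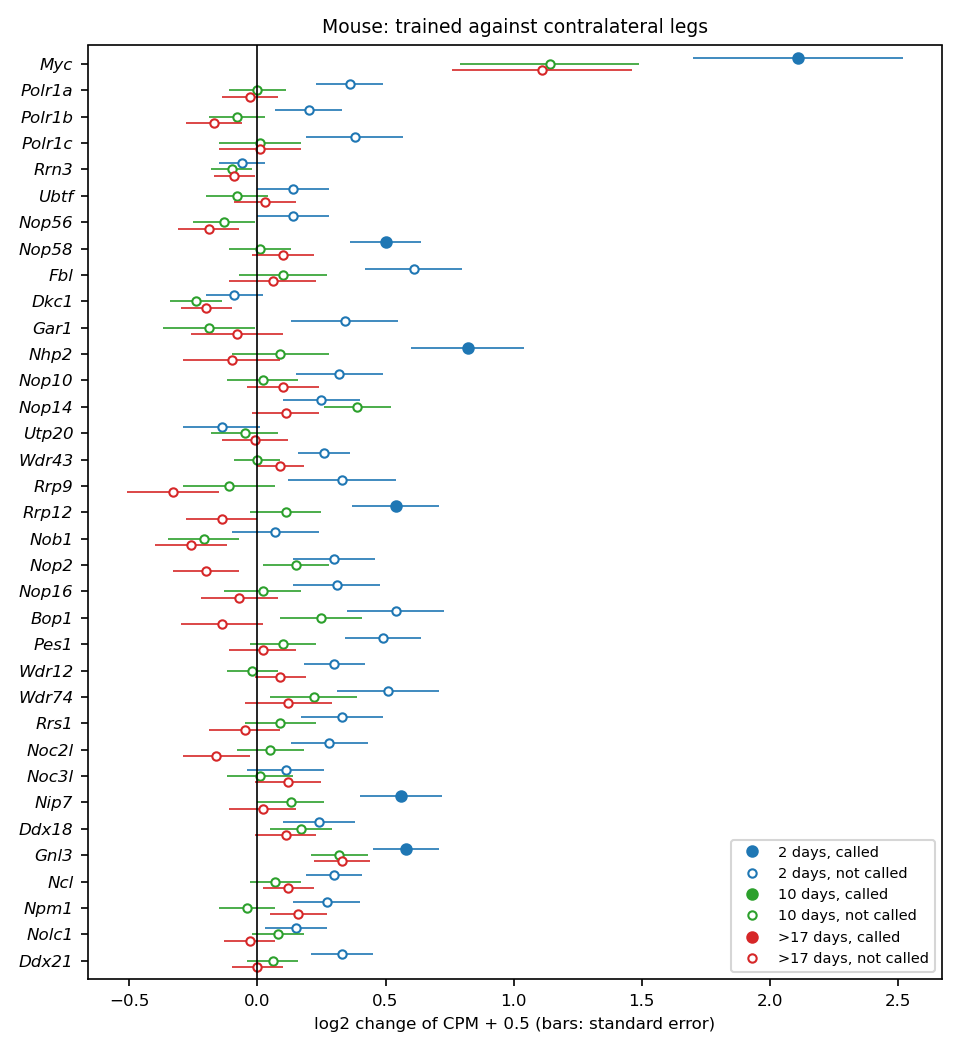
Change of each member in trained against contralateral mouse legs, as log2 of CPM + 0.5 with standard errors, after 2, 10 and over 17 days of training; filled points passed a limma adjusted p of 0.05. All 6 filled points, Myc at 2.11 the farthest, belong to 2 days, and the 10-day and over-17-day values of most other members lie near 0.

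After 10 days 0 of 35 members were called by limma, with 4 at an unadjusted p under 0.05 and 5.53% of genes called, 3.61% as higher and 1.92% as lower. The median was 0.02 over members and 0.03 over genes. Nop14, a small-subunit factor, had the lowest p after Myc: it stood at 23.3, 25 and 23.8 CPM against 15.5, 19.0 and 21.3 CPM as lowest, median and highest of the controls, a change of 0.39 ± 0.13 (limma adjusted p = 0.0932). All 3 trained legs were above all controls. Myc and Nop14 were called at this time with rescaling to the median ratio, and also in a fit of these 2 groups only. With the animal as a block Nop14 had a limma adjusted p of 0.275.

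After over 17 days 0 of 35 members were called by limma, with 2 at an unadjusted p under 0.05 and 8.78% of genes called, 6.3% as higher and 2.48% as lower. The median was -0.00 over members and 0.05 over genes. Gnl3 had the next lowest p after Myc, with 22.0, 20.8 and 25.7 CPM, a change of 0.33 ± 0.11 (limma adjusted p = 0.0753). TAL343, at 20.8 CPM, lay just inside the control range that ends at 20.9 CPM. At 10 days Gnl3 stood at 21.8, 19.2 and 27.3 CPM, a change of 0.32 ± 0.11 (limma adjusted p = 0.118) that was 0.18 without TAL342 (limma adjusted p = 0.545). Markers of fibres and of other cells moved at over 17 days. The fibre markers summed to 81300 to 84900 CPM, below the contralateral range, and 4 of 8 (Actn3, Ckm, Myh4 and Pvalb) fell (limma). Acta1, Tnnt3, Tnni2 and Mylpf were not called, and a change of fibre type was not tested. Of the 8 fibroblast markers 4 rose and of the 13 macrophage markers 2 rose (limma). Their sums were 1030 to 3060 CPM and 79.5 to 825 CPM, TAL337 having the highest of both, against 442 to 1330 CPM and 46.6 to 220 CPM in contralateral legs. All 4 cycling-cell markers tested, Ccna2, Mki67, Top2a and Tpx2, were called, 3 higher and 1 lower (limma). The 7 listed summed to 7.0 to 19.6 CPM, TAL337 again the highest, against 3.6 to 8.42 CPM in contralateral legs. The part of these shifts in the members' changes was not tested.

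Between trained groups no member was called. Over 17 days minus 2 days gave 0 calls by limma, 13 at an unadjusted p under 0.05 and 0.586% of genes called, 0.11% as higher and 0.476% as lower, with a median of -0.37 over members and -0.05 over genes. The lowest p was that of Nhp2, at -0.92 ± 0.25 (limma adjusted p = 0.106), followed by Rrp12 at -0.68 ± 0.20 (limma adjusted p = 0.119). These values rest on TAL344: without it 0 members had an unadjusted p under 0.05, and without TAL345 there were 12 called by limma, all lower (16.4% of genes called). The 10-day minus 2-day difference gave 0 calls by limma with 10 at an unadjusted p under 0.05 (0.022% of genes called), and over 17 days minus 10 days gave 0 calls by limma with 1 at an unadjusted p under 0.05 (0.0% of genes called).

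Compared within each animal, the members other than Myc had a median own-leg change of 0.50 in the mouse of TAL344, with 32 of 34 above 0 against 70.4% of all genes, and 0.04 in the mouse of TAL345, with 22 of 34 against 51.6%. The 10-day mice of TAL340, TAL341 and TAL342 had medians of -0.11, 0.13 and -0.05. The over-17-day mice of TAL337, TAL343 and TAL349 had medians of 0.14, -0.10 and 0.02, and the numbers above 0 were 29, 9 and 20 of 34, against 69.7%, 53.7% and 57.6% of all genes. In 8 of 8 mice the left leg was above the right for Myc, Gnl3 and the helicase Ddx18, the last at 0.01 to 0.45. For Dkc1 it was so in 1 of 8, and the shares of all genes with such numbers were not counted.

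**Figure D3:**
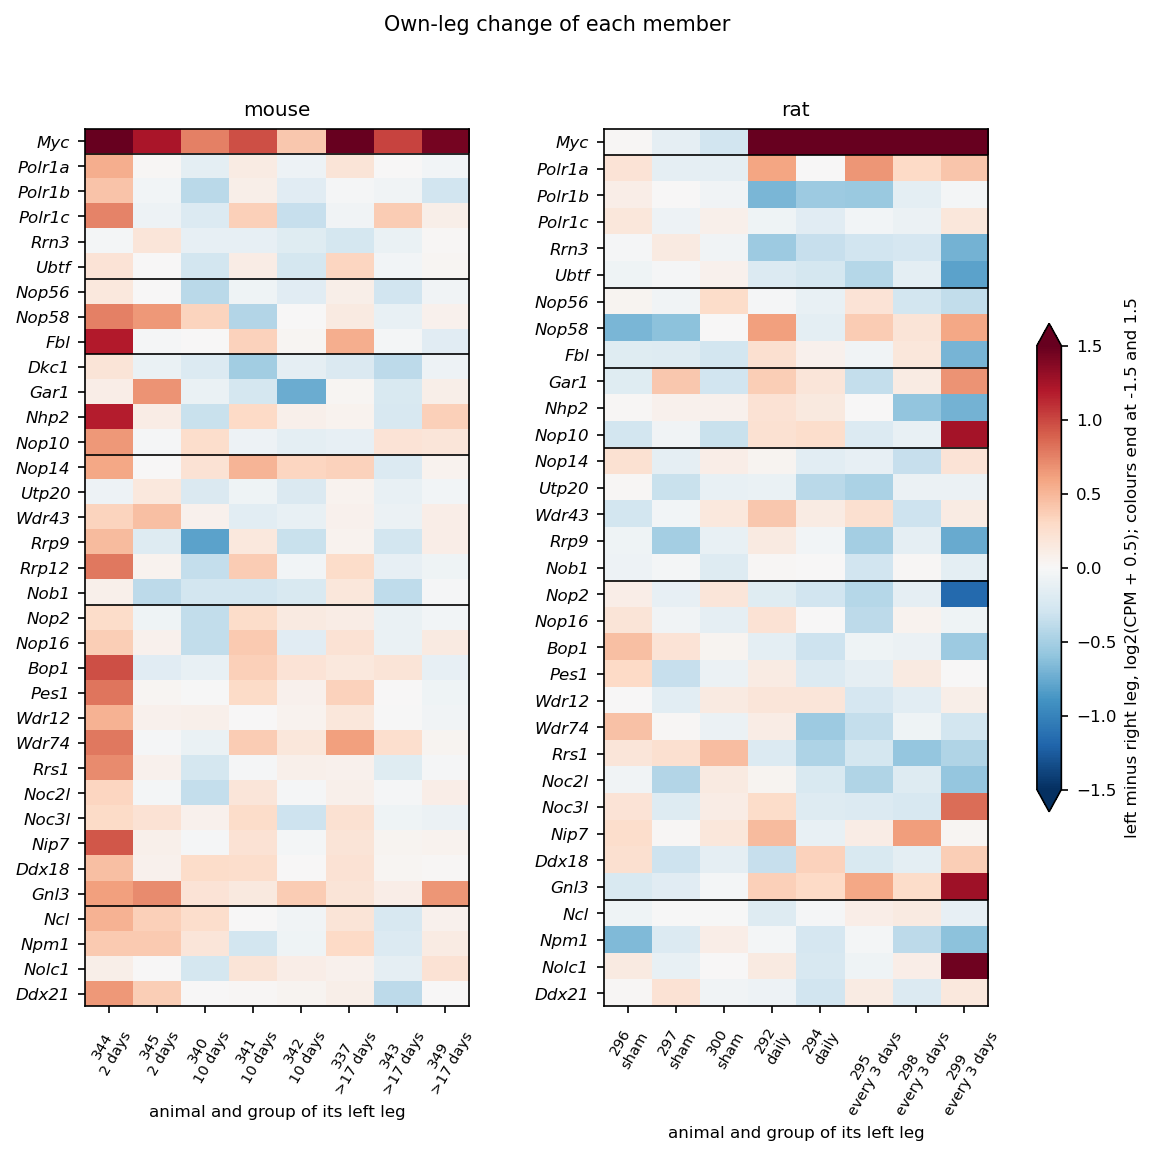
Left minus right leg of each animal for every member, on log2(CPM + 0.5), for mice (left panel) and rats (right panel); lines part the roles, and colours end at -1.5 and 1.5. Myc is red in all 8 mice and all 5 trained rats and near 0 in the 3 sham rats, the mouse of TAL344 is red for nearly all members, and the rat of TAL299, whose right leg is the shallow library, holds the extremes of several other members.

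In rats 1 of 33 members, Myc, was called in the daily legs against sham (limma, 6 at an unadjusted p under 0.05), where 8.14% of genes were called, 5.53% as higher and 2.61% as lower. In the every-3-days legs against sham it was again 1 of 33, Myc (limma, 5 at an unadjusted p under 0.05), where 4.25% of genes were called, 3.55% as higher and 0.695% as lower. The medians over members were -0.05 and 0.00, beside 0.10 and 0.07 over genes. Muscle-fibre markers summed to 83200 to 87100 CPM in daily legs, 107000 to 133000 CPM in every-3-days legs and 176000 to 235000 CPM in sham legs. These are mostly genes of fast fibres, and a change of fibre type was not tested. The 8 fibroblast markers, all detected, summed to 2270 to 2510, 1130 to 3730 and 463 to 1040 CPM. Cycling-cell markers summed to 8.8 to 13.0, 14.7 to 19.4 and 19.9 to 69.8 CPM in the same order. Of the 5 tested, Tpx2 was called lower in daily legs against sham (limma). In every-3-days legs Mki67 and Tpx2 were called against sham, 1 higher and 1 lower (limma). The part of these shifts in the members' changes was not tested.

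Against contralateral legs 2 of 33 members were called in each trained rat group. In daily legs Myc rose and Rrn3 fell (limma, 6 at an unadjusted p under 0.05), where 8.22% of genes were called, 5.33% as higher and 2.89% as lower. In every-3-days legs Myc and Polr1a rose (limma, 6 at an unadjusted p under 0.05), where 6.66% of genes were called, 4.96% as higher and 1.7% as lower. Medians over members were -0.09 and -0.04, beside 0.06 and 0.03 over genes. Sham minus contralateral legs gave 0 called members by limma, 0 at an unadjusted p under 0.05 and 0.0% of genes called. Daily minus every-3-days training also gave 0 by limma, with 1 at an unadjusted p under 0.05, Polr1b at -0.43 ± 0.20 (limma adjusted p = 0.845), where 0.0869% of genes were called.

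Members of the RNA polymerase I machinery did not share a direction in trained rats. Polr1a, the largest subunit and holder of the catalytic centre, stood at 39.5, 31.2 and 35.9 CPM in every-3-days legs and at 42.1 and 24 CPM in daily legs. Sham legs stood at 23.2, 22.6 and 23.6 CPM, and contralateral legs at a lowest, median and highest of 20, 25.1 and 27.7 CPM. The 3 every-3-days legs were above all untrained legs, while daily leg TAL294 lay among them. Polr1a rose by 0.50 ± 0.14 in every-3-days against contralateral legs (limma adjusted p = 0.0422), a call lost with the animal as a block (0.46, limma adjusted p = 0.123), without TAL295 (0.42, limma adjusted p = 0.244) and without TAL299 (0.49, limma adjusted p = 0.14). Its change ran from 0.42 to 0.59 over all 10 alternatives. Against sham legs the change was 0.60 ± 0.17 (limma adjusted p = 0.0568). In daily legs it was 0.45 ± 0.19 against sham (limma adjusted p = 0.163), and the 2 legs differed: it was 0.05 without TAL292 and 0.85 without TAL294 (limma adjusted p = 0.0144). Against contralateral legs the daily change was 0.35, with -0.05 without TAL292 and 0.75 without TAL294 (limma adjusted p = 0.0184).

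Rrn3, one of the members with an E-box shown above for mouse, stood at 53.8 and 57.0 CPM in daily legs and at 59.6, 68.7 and 70.7 CPM in every-3-days legs. Sham legs stood at 67.8, 77.8 and 77.8 CPM, and contralateral legs at a lowest, median and highest of 68.9, 75.8 and 116 CPM, the highest being TAR299. Both daily legs were below every sham and contralateral leg. Rrn3 fell by 0.51 on the log2(CPM + 0.5) scale in daily against contralateral legs, with a standard error of 0.15 (limma adjusted p = 0.0481). The call was lost with the animal as a block (-0.45, limma adjusted p = 0.179), without TAL292 (-0.47, limma adjusted p = 0.403), without TAL294 (-0.55, limma adjusted p = 0.168), without the filter and in a fit of the 2 groups only. It held without TAR299 at -0.44 (limma adjusted p = 0.00805), and the change ran from -0.58 to -0.44 over all 9 alternatives. Polr1b, the subunit that completes the catalytic centre, stood at 13.0 and 16.2 CPM in daily legs against 16.2 to 24.8 CPM in contralateral legs, at -0.57 ± 0.17 (limma adjusted p = 0.0504). In mice after 2 days Polr1a stood at 69.2 and 47.8 CPM against 38.1 to 47.2 CPM in contralateral legs, a change of 0.36 ± 0.13 (limma adjusted p = 0.0845) and 0.09 without TAL344, and Rrn3 at 39.4 and 43.6 CPM against 38.3 to 46.3 CPM.

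Gnl3 stood at 37.5 and 32.5 CPM in daily and at 36.1, 36.3 and 36.3 CPM in every-3-days rat legs. Sham legs stood at 22.4, 25.1 and 25.1 CPM, and contralateral legs at a lowest, median and highest of 14.8, 26.4 and 30.0 CPM, with TAR299 at 14.8 and the others from 24 CPM. All 5 trained legs were above all 11 untrained legs. With all libraries, the deposited scaling and no animal block, no comparison of trained rat legs called Gnl3. Changes against sham were 0.52 ± 0.22 for daily and 0.57 ± 0.20 for every-3-days legs (limma adjusted p = 0.158 and 0.123). Against contralateral legs they were 0.47 ± 0.19 and 0.52 ± 0.16 (limma adjusted p = 0.14 and 0.0639). Without TAR299 all 4 were called, at limma adjusted p of 0.00793, 0.00236, 0.0294 and 0.00653 in the same order. In comparisons with sham, here and below, TAR299 enters only through the spread shared by all groups. Leaving it out does not alter the changes against sham. With the animal as a block the every-3-days change against contralateral legs was 0.71 (limma adjusted p = 0.0426), and Gnl3 was also called there with median-ratio rescaling, and against sham in a fit of these 2 groups only. Each of the 5 trained rats had more Gnl3 in the left than in the right leg, and each of the 3 sham rats had less, by -0.03 to -0.23 on the log2(CPM + 0.5) scale.

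**Figure D4:**
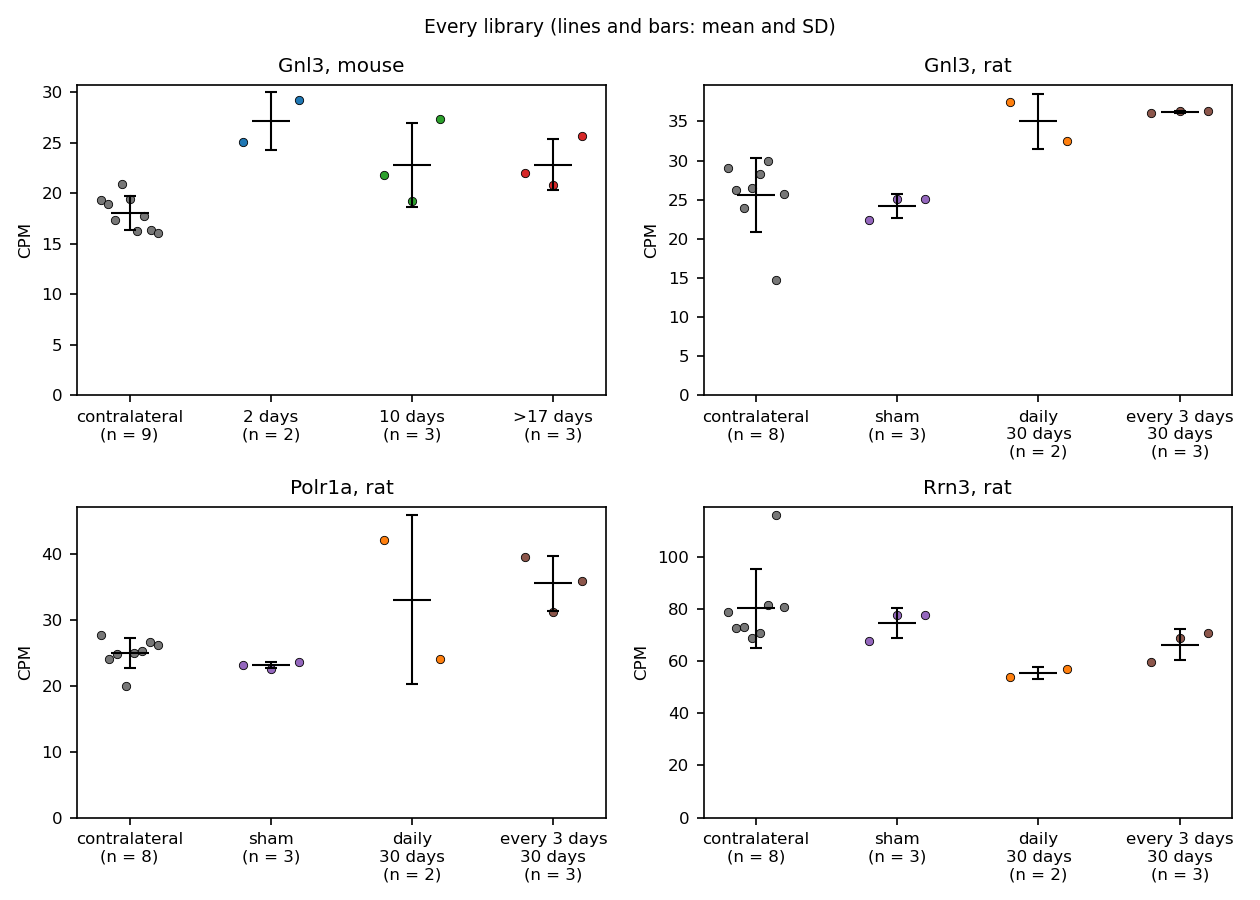
CPM of Gnl3 in mouse and rat and of Polr1a and Rrn3 in rat, with a point for each leg and lines and bars for group mean and SD. The 5 trained rat legs of Gnl3, at 32.5 to 37.5 CPM, lie above all sham and contralateral legs, daily leg TAL294 at 24 CPM lies among untrained legs for Polr1a, and contralateral leg TAR299 lies apart for Gnl3 at 14.8 CPM and Rrn3 at 116 CPM.

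The number of members called in rats without TAR299 was 4 for daily against sham (Gnl3 and Myc higher, Rrn3 and the large-subunit factor Rrs1 lower, with 14.7% of genes called), 3 for every-3-days against sham (Gnl3, Myc and Polr1a, 7.02%), 4 for daily against contralateral (Gnl3 and Myc higher, Polr1b and Rrn3 lower, 12.9%) and 3 for every-3-days against contralateral legs (Gnl3, Myc and Polr1a, 9.54%). Rrs1, which helps to place a small ribosomal RNA in the large subunit, stood at 9.41 and 7.84 CPM in daily legs and at 11.4 to 14.0 CPM in sham legs, at -0.55 ± 0.21 with all libraries (limma adjusted p = 0.123). In own-leg terms Rrn3, Polr1b, Ubtf, Nop2, Bop1, Rrs1, Npm1 and Utp20 were above the right leg in 0 of 5 trained rats. The right leg of the rat of TAL299 is TAR299, which had the highest contralateral value for all 8 of these members. Of all genes, 37.6% to 65.4% were above the right leg in each trained rat, and the share at 0 of 5 was not counted.

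Box particle proteins and the abundant nucleolar proteins showed no called change in rats. Nop58 stood at 26.9 and 17.9 CPM in daily, 24.1, 22.7 and 21.2 CPM in every-3-days and 13.9, 15.3 and 19.5 CPM in sham legs, at 0.48 ± 0.19 for every-3-days against sham (limma adjusted p = 0.205). Contralateral legs spanned 14.0 to 23.5 CPM and overlapped all of these groups. Nhp2, called in mice after 2 days, stood at 7.38 to 9.92 CPM in the 5 trained rat legs and 6.99 to 12.7 CPM in contralateral legs. Npm1, a histone and ribosomal-protein chaperone, stood at 51.9 to 58.4 CPM in trained legs, against 51.6 to 67.8 CPM in sham and 56.2 to 82.3 CPM in contralateral legs, at -0.34 ± 0.12 for every-3-days against contralateral legs (limma adjusted p = 0.106). Npm1, Fbl and other members have near-identical processed copies in rodent genomes, and the counting could have divided reads between copies.

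**Figure D5:**
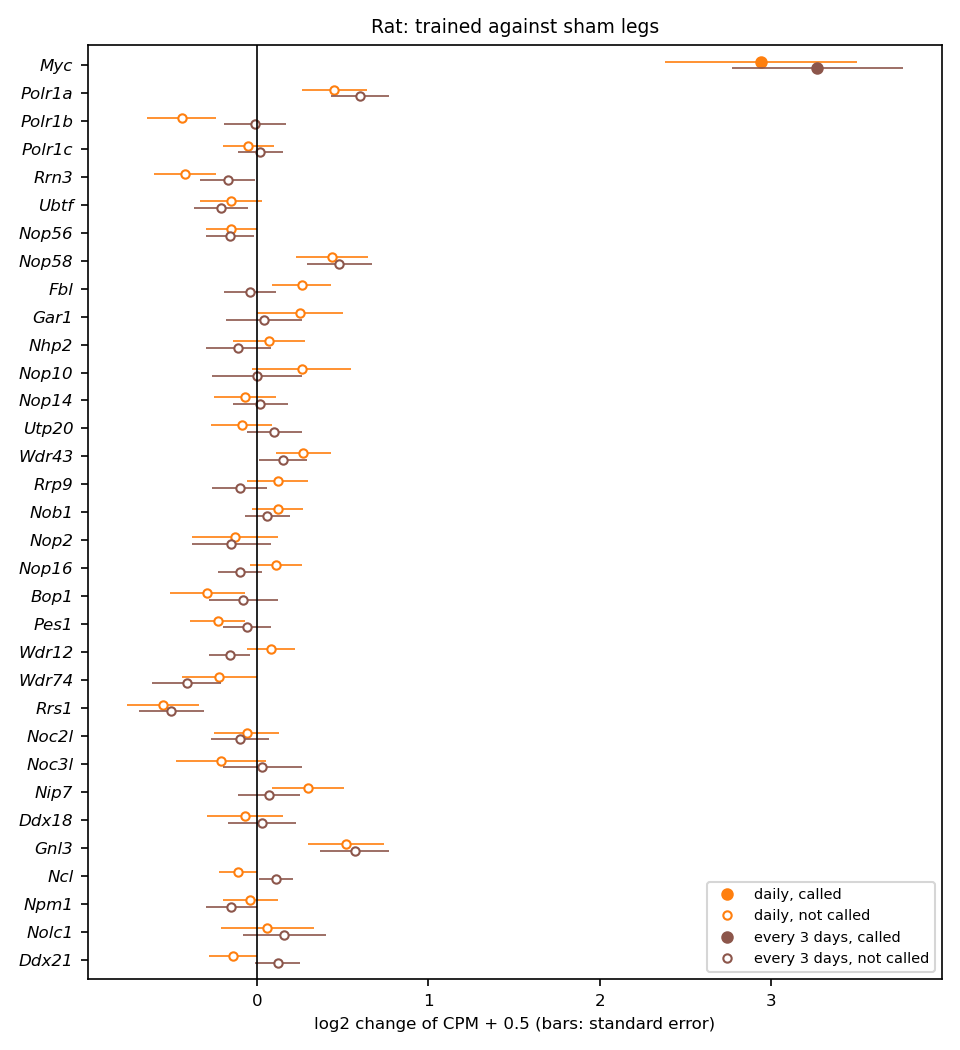
Change of each of the 33 members in trained rat legs against sham legs, as log2 of CPM + 0.5 with standard errors, for daily and every-3-days training; filled points passed a limma adjusted p of 0.05. Myc is the filled member in both groups, at 2.94 and 3.27, and no other member lies beyond 0.60 in either direction.

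A wider list of 112 symbols for further ribosome assembly factors was read in the same way, 108 of them tested in mice and 97 in rats. Some symbols, such as Polr1f and Twistnb, name the same gene, so the list holds fewer genes than symbols. After 2 days 15 of the 108 rose and 0 fell (limma, 46 at an unadjusted p under 0.05), with a median of 0.27, where 7.32% of all genes were called as higher and the median of all genes was 0.11. Without TAL344 0 were called by limma, with 7 at an unadjusted p under 0.05 and a median of 0.08. Utp18, of the early small-subunit particle, averaged 7.62 ± 2.47 CPM (SD, n = 2), beside 3.93 ± 0.361 CPM (SD, n = 9) in the controls, and rose by 0.84 ± 0.18 (limma adjusted p = 0.00607). Nol12, a nucleolar RNA-binding protein, rose by 0.77 ± 0.20 (limma adjusted p = 0.0212), the small-subunit kinase Riok2 by 0.65 ± 0.16 (limma adjusted p = 0.0188) and the methyltransferase Ftsj3 by 0.62 ± 0.15 (limma adjusted p = 0.0134). None of these 4 was called without TAL344 (limma adjusted p = 0.381 to 0.689) or with the animal as a block (limma adjusted p = 0.0567 to 0.209). After 10 days 0 rose and 1 was lower (limma, 8 at an unadjusted p under 0.05, 5.53% of all genes called): Taf1a, a subunit of the RNA polymerase I promoter factor, fell by 0.48 on the log2 scale (limma adjusted p = 0.0177, and 0.173 with the block). After over 17 days 0 rose and 1 was lower (limma, 12 at an unadjusted p under 0.05, 8.78% of all genes called): the nucleolar protein Rrp1b fell by 0.42 (limma adjusted p = 0.0493, and 0.203 with the block).

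In rats 0 of the 97 further factors rose in any comparison by limma, with 0 to 8 at an unadjusted p under 0.05 in either direction. Against sham 2 were lower in daily legs, where 2.61% of all genes were called as lower. Tcof1, the nucleolar factor altered in Treacher Collins syndrome, fell by 0.73 (limma adjusted p = 0.0497), and Mybbp1a, a nucleolar Myb-binding protein, fell by 0.66 (limma adjusted p = 0.0206). Mybbp1a averaged 62.4 ± 7.80 CPM (SD, n = 2) in daily legs, beside 98.3 ± 5.03 CPM (SD, n = 3) after sham surgery. Neither was called with the animal as a block (limma adjusted p = 0.24 and 0.165). In every-3-days legs against sham 0 were called by limma, with 4 at an unadjusted p under 0.05. Against contralateral legs 3 were lower in daily legs, where 2.89% of all genes were called as lower: Tcof1 fell by 0.66 (limma adjusted p = 0.0408), Ppan, a large-subunit factor, fell by 0.62 (limma adjusted p = 0.0409) and Mybbp1a fell by 0.60 (limma adjusted p = 0.0136). None of the 3 was called with the animal as a block (limma adjusted p = 0.165, 0.213 and 0.122), and the largest limma adjusted p with a daily leg left out was 0.388, 0.387 and 0.196.

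Of 11 listed Myc partners, antagonists and relatives, 8 were tested in mice and 6 in rats, and 1 call was made in all comparisons with controls. Mnt, a repressor that competes with Myc for Max, averaged 20 ± 3.24 CPM (SD, n = 3) after 10 days, beside 10.9 ± 1.93 CPM (SD, n = 9) in contralateral legs. It rose by 0.86 ± 0.17 (limma adjusted p = 0.00489), and was not called with the animal as a block (limma adjusted p = 0.113).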

How the data were processed

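RNA from 17 mouse and 16 rat muscles was purified (Trizol, then RNeasy columns) and sequenced on Illumina chemistry, per the labels' protocols. The authors deposited CPM with 0.0001 added to each value, and this offset was subtracted. Per the submitters' processing notes, the tools were Partek, STAR 2.7.8a and DESeq2 and the builds GRCm39, mm10 and rn7, with no role stated for any. Mouse coordinates are given as GRCm39, since the deposited start of Rrn3 (13598572) differs from its RefSeq window in GRCm38.p6. Rat coordinates are given as rn7, the rat build named. Rat rows of the same symbol were summed, and of 23 mouse rows with a repeated symbol the more abundant was kept. Steps between low CPM values gave the estimated depth. Whole reads were not recovered (85.2 to 89.4% of values worth up to 20 reads at a tolerance of 0.05, under the 95% needed), which left no counts to test. The depths limit the precision of low members such as Myc.

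A gene was tested where 2 or more libraries had a CPM of at least 1 (13647 genes in mice, 10356 in rats). The test was limma 3.58.1 (R 4.3.3, 2-sided, trended variance) on log2(CPM + 0.5), fitted once per species over all its groups. This scale understates the change of low genes. The script was checked on simulated data. Adjusted p-values are Benjamini-Hochberg over all genes tested, and a gene was called under 0.05. There were 12 comparisons. Legs entered as separate samples. Left and right legs with the same number come from the same animal, which pairs them. Deviations from group means correlated across genes between the legs at 0.12 to 0.30 in mice, apart from the mouse of TAL345 at -0.03, and at 0.04 to 0.26 in rats. A fit blocked on animal was an alternative, beside pseudocounts of 0.1 and 1, no filter, median-ratio rescaling, mitochondrial genes left out, 2 groups only and each trained or sham library, or TAR299, left out. Between left-leg groups, that fit compares changes within animals.

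The members, the lists of further factors and markers and the rule for named genes (Myc in every comparison, the called members with the largest changes, up to 4, or the 2 with the lowest p where none was called, and up to 4 called genes of each further list) were chosen with earlier results of these data known. Gnl3 and Polr1a were followed across groups, and Nop58, Rrp12, Rrn3, Rrs1, Fbl, Bop1, Pes1, Polr1b, Npm1 and Ddx18 named, after their values were seen. Promoter windows of 29 members are from RefSeq (GRCm38.p6). Python 3.11.15, numpy 2.4.6, pandas 2.3.3 and matplotlib 3.10.9 were used.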

Additional observations from a re-analysis of the deposited data

Results flagged for a closer look

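Of 68 sets of contralateral values, 35 mouse and 33 rat members, 16 held a leg far from the rest of its group by Dixon's criterion. Chance meets that criterion in about 1 of 20 independent sets, and these sets share libraries. The share over all genes was not counted, so the 16 are not read as particular to the members. Of the 16, 9 were rat leg TAR299. In that leg Nop2 stood at 25.3 CPM, Rrs1 at 15.2, Rrn3 at 116, Ubtf at 114, Noc2l at 28.1 and Ncl at 186, above the other 7 contralateral legs. Nop10 stood at 22.2 CPM, Nolc1 at 17.7 and Gnl3 at 14.8, below them. Rat leg TAR296 stood apart for 3 subunits of RNA polymerase I, with Polr1a at 20 CPM, Polr1b at 16.2 and Polr1c at 10.3, each below the other contralateral legs. Rat leg TAR298 stood high for Ddx21 at 63.9 CPM. Among mice, TAR340 stood high for Myc at 5.79 CPM, TAR349 low for Polr1a at 38.1 CPM and TAR344 low for Utp20 at 10.7 CPM.

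Among the further factors Ftsj3 differed between training times, over 17 days minus 2 days giving -0.85 (limma adjusted p = 0.0316), a call lost in a fit of these 2 groups only (limma adjusted p = 0.863) and with the animal as a block (limma adjusted p = 0.503).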

How the results depend on the processing

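Every-3-days Myc was called in all 13 alternatives against sham and all 10 against contralateral legs. Daily Myc lost its call only without TAL292. The number of members called moved as follows. After 2 days the 6 became 3 with median-ratio rescaling, 2 with the animal as a block and 0 to 16 with a leg left out. After 10 days the 0 became 2 with rescaling and 2 in the 2 groups only. After over 17 days the 0 became 1 with a pseudocount of 0.1, 1 with rescaling, 2 without mitochondrial genes, 1 with the block and 2 in the 2 groups only. Over 17 minus 2 days ranged from 0 to 12 with a leg left out. In rats daily against sham ranged from 0 to 4 and every-3-days against sham from 1 to 3 with a leg left out, the latter giving 3 in the 2 groups only. Daily against contralateral gave 1 unfiltered, 1 with the block, 1 in the 2 groups only and 0 to 4 with a leg left out, and every-3-days against contralateral 1 to 3. The block changed no other number of called members by over 1.5 times.

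Some uncalled changes turned sign, and the cause was not tested. With single legs left out, Myc in over 17 days minus 2 days ranged from -2.15 (without TAL345) to 0.17 (without TAL344), and Myc in sham minus contralateral legs from -0.21 (without TAR299) to 0.15, with -0.10 without TAL296. That last change was -0.00 with a pseudocount of 1 and -0.14 with the block. In daily minus every-3-days legs, without TAL292 and without TAL294, Myc was -0.79 and 0.13, Gnl3 -0.15 and 0.05, and Polr1a -0.55 and 0.25. Gnl3 in sham minus contralateral legs ranged from -0.16 to 0.00, and Polr1a in daily minus contralateral legs from -0.05 to 0.75.

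Rescaling moved the share of higher genes among those called from 75.3% to 52.6% after 2 days, 71.8% to 57.7% after over 17 days and 68.0% to 55.2% in daily legs against sham. Without mitochondrial genes it was 63.8% after 2 days, and 55.2% after 10 days against 65.3%. The median of all genes after 2 days was 0.11 as deposited and -0.01 rescaled, and that of the members 0.31 and 0.19. With 2 or 3 trained legs a group, and Myc in TAR299 at an estimated 2 reads, small changes of single members cannot be resolved.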
